A study of Rattus norvegicus with 6 samples.

Results

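The genes described here are the kallikreins and the membrane-linked and related trypsin-like serine proteases of rat skin. They are every row of the deposited count table whose gene name begins with Klk, Tmprss or Prss followed by a digit, together with St14, Plau, Plat and Htra1. That rule found 77 genes among 34225 loci, of which 19 were Klk, 17 Tmprss and 37 Prss genes. The rule goes by gene names alone.

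Messenger RNA of back skin was sequenced in 6 libraries from Sprague-Dawley rats, which are outbred. The 3 groups of 2 libraries were rats given gefitinib by mouth at 80 mg/kg a day until a rash appeared, rats given afatinib by mouth at 30 mg/kg a day until a rash appeared, and untreated wild-type rats. Gefitinib blocks the epidermal growth factor receptor (EGFR), a tyrosine kinase through which skin keratinocytes receive growth signals, and binds it reversibly. Afatinib binds EGFR and its relatives ERBB2 and ERBB4 covalently. The doses differed between the inhibitors, and the labels do not say whether the days of dosing did. The labels give replicate numbers but do not say that the replicates are separate animals, so the p-values measure the spread between these libraries only.

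Trypsin-like serine proteases are made as inactive precursors and cut each other in cascades. In the outer epidermis, secreted kallikreins cleave the desmosomal cadherins that hold cornified cells together, and the inhibitor encoded by Spink5 restrains them. On the surface of living keratinocytes, matriptase, encoded by St14, and prostasin, encoded by Prss8, activate each other and are held in check by the inhibitors encoded by Spint1 and Spint2. The plasminogen activators encoded by Plau and Plat turn plasminogen into plasmin, which acts on fibrin and on extracellular matrix.

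The libraries held 19772043 and 20560892 counts in gefitinib skin, 17206456 and 18619303 in afatinib skin, and 20166522 and 22086673 in untreated skin. The 77 protease genes took 0.0645% and 0.0419% of the counts in gefitinib skin, 0.0376% and 0.0743% in afatinib skin, and 0.0316% and 0.0291% in untreated skin. Basal keratinocyte markers were found in every library, at 0.292% to 0.339% of the counts in gefitinib skin, 0.249% to 0.617% in afatinib skin and 0.104% to 0.139% in untreated skin. Markers of skeletal muscle took 4.48% to 7.83% in gefitinib skin, 4.93% to 13.9% in afatinib skin and 17.3% to 18.1% in untreated skin. Hair follicle and shaft markers took 0.538% to 0.818%, 0.129% to 0.694% and 0.00679% to 0.0271% in gefitinib, afatinib and untreated skin, and all 17 of these tested rose in gefitinib skin and 9 in afatinib skin. Markers of suprabasal and granular keratinocytes took 0.0553% to 0.059%, 0.0335% to 0.0784% and 0.0136% to 0.0237%, and 6 of the 11 tested rose with each inhibitor. Of 9 basal keratinocyte markers tested, 3 rose and 1 fell with gefitinib, and 0 passed with afatinib. Of 13 muscle markers tested, 0 rose and 1 fell with gefitinib, and 0 passed with afatinib. These calls are by edgeR's test at an adjusted p under 0.05. It called 12.3% of all tested loci higher and 5.45% lower with gefitinib, and 3.6% and 0.372% with afatinib. The part of these marker shifts in the protease values was not tested. Over all tested loci, afatinib replicate 1 stood apart from its group. On the log2(CPM + 1) values of 16398 loci its Pearson correlation was 0.937 with afatinib replicate 2, against 0.955 and 0.956 with the untreated libraries. Afatinib replicate 2 had 0.976 and 0.959 with the gefitinib libraries. Over the 32 protease genes with enough counts to be tested, the order was different. There afatinib replicate 1 had 0.935 with afatinib replicate 2, 0.907 and 0.886 with the gefitinib libraries, and 0.856 and 0.895 with the untreated ones. Of these 32 genes, 15 could enter the test only through inhibitor libraries, as given below. That choice of genes favours likeness among inhibitor libraries, so the order over them is a description only. In whole skin, fewer cells of a type and less RNA per cell cannot be told apart.

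Of the 77 genes, 32 had enough counts to be tested, 8 of them Klk, 9 Tmprss and 11 Prss genes. The other 45 were below the filter, 20 of them with 0 counts in every library and 25 with 1 to 37 counts over all 6 libraries. Of the 32, 15 had no untreated library over the filter's cut-off of 0.501 CPM, a count scaled to the size of its library. Such genes could enter the test only through inhibitor libraries, so the counts of calls over the 32 genes describe these genes and support no direction.

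Gefitinib skin had higher levels of 13 of the 32 tested protease genes and lower levels of 2, by edgeR's quasi-likelihood test at a Benjamini-Hochberg adjusted p under 0.05. The 13 were Klk6, Klk7, Klk8, Klk9, Klk13, Prss8, Prss22, Prss27, Prss35, Prss53, St14, Tmprss11g and Tmprss13, and the 2 lower were Plau and Plat. That is 46.9% of the genes called, against 17.7% of all 16398 tested loci, or 12.3% higher and 5.45% lower. The median log2 fold change was 1.79 over the 32 genes and 0.04 over all tested loci, and this and the afatinib median were the same with Prss27 and Tmprss11g, at 0 in untreated skin, set to their bounds. Among the 16 genes with both untreated libraries over the cut-off, 6 rose and 2 fell. In afatinib skin 10 of the 32 genes were higher and 0 lower, which is 31.2% called against 3.98% of all tested loci, or 3.6% higher and 0.372% lower. They were Klk6, Klk7, Klk8, Klk9, Klk10, Klk13, Prss27, Prss35, Prss53 and Tmprss11g. At an unadjusted p under 0.05 by the same edgeR test, 1 gene was lower in afatinib skin, where 5.91% of all tested loci were. The median log2 fold change was 1.57, against 0.09 over all tested loci, and 3 of the 16 genes over the cut-off in both untreated libraries rose. Both comparisons use the same untreated libraries, so their calls are not independent of each other. Without untreated replicate 1 or without untreated replicate 2, 0 of these genes were called with either inhibitor, while at most 10 of all tested loci were called. Without gefitinib replicate 1 or 2, the higher calls with gefitinib numbered 5 in each case, and the calls with afatinib numbered 2 in each case. The genes called higher with afatinib numbered 14 without afatinib replicate 1, with 1 called lower, and 3 without afatinib replicate 2. With the afatinib and untreated libraries fitted alone, 1 gene, Tmprss11g, was called higher with afatinib. Of the 57 protease genes that entered its fit, DESeq2 called 14 higher and 4 lower with gefitinib, and 13 higher and 0 lower with afatinib. It called 27.6% with gefitinib and 11.8% with afatinib of the 16672 loci to which it gave an adjusted p. Limma-voom called 12 higher and 1 lower with gefitinib, where it called 15.6% of all loci, and 0 with afatinib, where it called 0.207%.

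**Figure D1:**
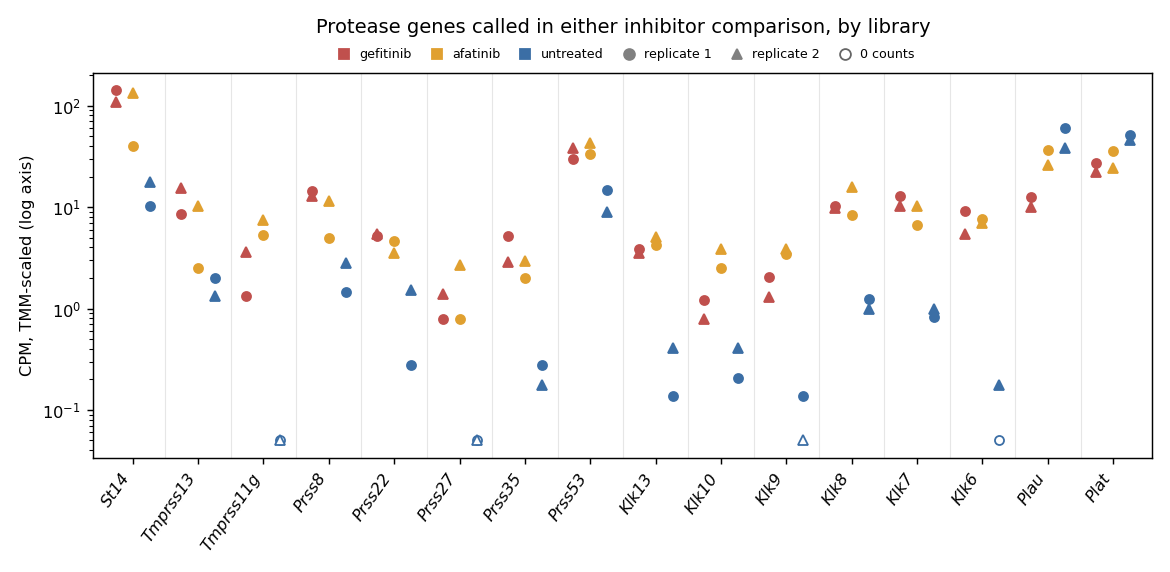
TMM-scaled CPM on a log axis for the 16 protease genes called in either inhibitor comparison, with 1 point per library, a circle for replicate 1 and a triangle for replicate 2. For 14 of them every gefitinib and afatinib library lies above both untreated libraries, and Tmprss11g and Prss27 have 0 counts in untreated skin, drawn as open symbols at the foot of the plot; Plau and Plat lie lower in the inhibitor libraries.

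The kallikrein genes lie in a single run on chromosome 1, at 99299011 to 100203329 in the coordinates of the deposited table, whose build the sources used here do not give. The genes that rose sit close together there. Klk13 lies at 99648658 to 99660277, then come Klk12, Klk11 and Klk10, and then Klk9, Klk8, Klk7 and Klk6 in turn, ending at 99769488, all on the plus strand. The 250 bases before the start of Klk13, Klk10, Klk7 and Klk6 are shown as the promoters of this run, and those of Plau as a gene that was lower in gefitinib skin. They come from RefSeq on build GRCr8, at chr1:103301685-103301934, chr1:103371388-103371637, chr1:103403466-103403715 and chr1:103415266-103415515 on the plus strand and at chr15:3511988-3512237 on the minus strand. Capitals mark CACCC, a motif of Krüppel-like factors, and TATAA, the TATA box core, on either strand, so that GGGTG and TTATA are capitals too.
Klk13: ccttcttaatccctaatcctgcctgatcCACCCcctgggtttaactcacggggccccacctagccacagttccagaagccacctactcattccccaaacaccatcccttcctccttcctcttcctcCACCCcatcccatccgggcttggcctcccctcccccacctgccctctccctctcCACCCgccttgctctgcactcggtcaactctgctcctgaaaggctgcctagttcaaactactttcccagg
Klk10: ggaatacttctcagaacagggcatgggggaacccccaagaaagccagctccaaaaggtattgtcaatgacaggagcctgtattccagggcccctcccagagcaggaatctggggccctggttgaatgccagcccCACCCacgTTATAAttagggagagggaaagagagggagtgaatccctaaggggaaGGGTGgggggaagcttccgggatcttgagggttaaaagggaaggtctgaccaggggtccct
Klk7: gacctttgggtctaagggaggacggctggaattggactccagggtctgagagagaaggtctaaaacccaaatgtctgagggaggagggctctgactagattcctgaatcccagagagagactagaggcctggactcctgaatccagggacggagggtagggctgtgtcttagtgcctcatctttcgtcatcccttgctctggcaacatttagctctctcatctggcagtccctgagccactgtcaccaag
Klk6: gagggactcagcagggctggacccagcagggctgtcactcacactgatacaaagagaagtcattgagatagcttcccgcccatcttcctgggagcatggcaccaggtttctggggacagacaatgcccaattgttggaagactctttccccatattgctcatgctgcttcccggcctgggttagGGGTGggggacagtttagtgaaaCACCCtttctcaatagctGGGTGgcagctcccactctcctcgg
Plau: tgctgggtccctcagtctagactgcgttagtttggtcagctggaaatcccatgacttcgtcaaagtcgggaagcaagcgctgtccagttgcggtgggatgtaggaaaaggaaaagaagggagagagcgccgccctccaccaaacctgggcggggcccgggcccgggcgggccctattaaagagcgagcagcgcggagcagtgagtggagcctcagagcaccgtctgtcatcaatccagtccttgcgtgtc

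CACCC occurred 3 times before Klk13, 2 times before Klk10, 3 times before Klk6 and 0 times before Klk7 and Plau. TATAA was found, of these 5 windows, before Klk10, where its matches on both strands overlap, and TGANTCA, the motif of AP-1 factors, in 0 of them. Of all 33469 windows of 250 bases in the table, 49.2% held CACCC, 24% TATAA and 6.34% TGANTCA. Of 68 windows belonging to 58 of the 77 genes, 44 held CACCC, 11 TATAA and 6 TGANTCA. The motifs were chosen after the values were seen, and a match is a description of the letters only.

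Of the 8 tested kallikreins, 5 rose in gefitinib skin and 6 in afatinib skin, and 0 fell. Their median log2 fold change was 3.41 in gefitinib skin and 3.39 in afatinib skin. Over all tested loci, 12.3% were higher and 5.45% lower with gefitinib, and 3.6% and 0.372% with afatinib. Klk6, Klk9, Klk10 and Klk13 had no untreated library over the filter's cut-off and could enter the test only through inhibitor libraries. The kallikrein counts and medians therefore describe these genes and support no direction. Klk7, a chymotrypsin-like protease of the cornified layer, had 12.8 and 10.3 CPM in gefitinib skin and 6.69 and 10.2 CPM in afatinib skin, against 0.83 and 0.989 CPM in untreated skin. All inhibitor libraries lay well above both untreated ones. The log2 fold change was 3.65 with gefitinib (SE 0.427, edgeR adjusted p = 0.00971) and 3.20 with afatinib (SE 0.422, edgeR adjusted p = 0.0257). Klk8, a trypsin-like protease of the upper epidermis, had 10.2 and 9.8 CPM in gefitinib skin, 8.45 and 15.8 CPM in afatinib skin, and 1.24 and 0.989 CPM in untreated skin. It was highest in afatinib replicate 2, and the inhibitor and untreated libraries did not overlap. Its log2 fold change was 3.16 with gefitinib (SE 0.449, edgeR adjusted p = 0.0117) and 3.44 with afatinib (SE 0.453, edgeR adjusted p = 0.0257).

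Klk6, another trypsin-like kallikrein, was close to absent from untreated skin. It had 235 and 124 counts in gefitinib libraries, 118 and 180 in afatinib libraries, and 0 and 3 in untreated libraries. These are 9.21 and 5.43 CPM, 7.67 and 6.94 CPM, and 0 and 0.175 CPM. All 4 inhibitor libraries lay far above both untreated ones, gefitinib replicate 1 highest. The ratio of counts was 78.3 with gefitinib (95% interval 26.6 to 382; edgeR adjusted p = 0.0106) and 76.1 with afatinib (95% interval 25.8 to 371; edgeR adjusted p = 0.026). Klk9 had 2.04 and 1.31 CPM in gefitinib skin, 3.44 and 3.89 CPM in afatinib skin, and 0.138 and 0 CPM in untreated skin, where it had 2 counts in all. Here the afatinib libraries were the higher ones. Its count ratio was 26.8 with gefitinib (95% interval 7.19 to 225; edgeR adjusted p = 0.0222) and 59.0 with afatinib (95% interval 16.1 to 491; edgeR adjusted p = 0.0334). These intervals cover counting error only.

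Klk13, at the other end of the run, had 3.88 and 3.54 CPM in gefitinib skin, 4.22 and 5.09 CPM in afatinib skin, and 0.138 and 0.407 CPM in untreated skin. Its level was even across the 4 inhibitor libraries, with a log2 fold change of 3.70 with gefitinib (SE 0.599, edgeR adjusted p = 0.0142) and 4.03 with afatinib (SE 0.603, edgeR adjusted p = 0.0309). Klk10 had 1.22 and 0.788 CPM in gefitinib skin, 2.53 and 3.82 CPM in afatinib skin, and 0.207 and 0.407 CPM in untreated skin. It passed the test with afatinib, with a log2 fold change of 3.33 (SE 0.655, edgeR adjusted p = 0.0425), and did not with gefitinib, with 1.67 (SE 0.653, edgeR adjusted p = 0.111), although its libraries did not overlap in either comparison. Groups lay wholly above untreated in 38.8% of all tested loci with gefitinib and in 31.5% with afatinib. Klk11, which lies between Klk12 and Klk10, did not pass with either inhibitor. Its levels were 2.71 and 3.24 CPM in gefitinib skin, 4.74 and 6.82 CPM in afatinib skin, and 4.08 and 1.05 CPM in untreated skin, where the libraries differed from each other most. The log2 fold change was 0.22 with gefitinib (SE 0.637) and 1.19 with afatinib (SE 0.639), and that with gefitinib was −0.45 without untreated replicate 2.

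Leaving out a library changed many of these calls. With gefitinib, Klk6, Klk7 and Klk8 stayed under the threshold without either gefitinib library, at adjusted p values of 0.0369 to 0.0461 by edgeR's test. Klk13 reached an adjusted p of 0.0561 without gefitinib replicate 2 by edgeR's test, and Klk9 0.0788 without gefitinib replicate 1 and 0.0698 without gefitinib replicate 2. Without untreated replicate 1 or 2, the edgeR adjusted p of the 5 genes ran from 0.0694 to 0.115. With afatinib, Klk7 and Klk8 passed without either afatinib library, but reached 0.0516 to 0.055 by edgeR's test without gefitinib replicate 1 or 2, and 0.168 to 0.215 without untreated replicate 1 or 2. Klk6 passed with any inhibitor library left out, with an edgeR adjusted p of at most 0.049, and reached 0.14 and 0.102 without untreated replicates 1 and 2. Klk9, Klk10 and Klk13 lost their calls with afatinib when each of gefitinib replicates 1 and 2, afatinib replicate 2 and untreated replicates 1 and 2 was left out, with edgeR adjusted p values of 0.0572 to 0.245. The direction of every call held in each of these fits.

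**Figure D2:**
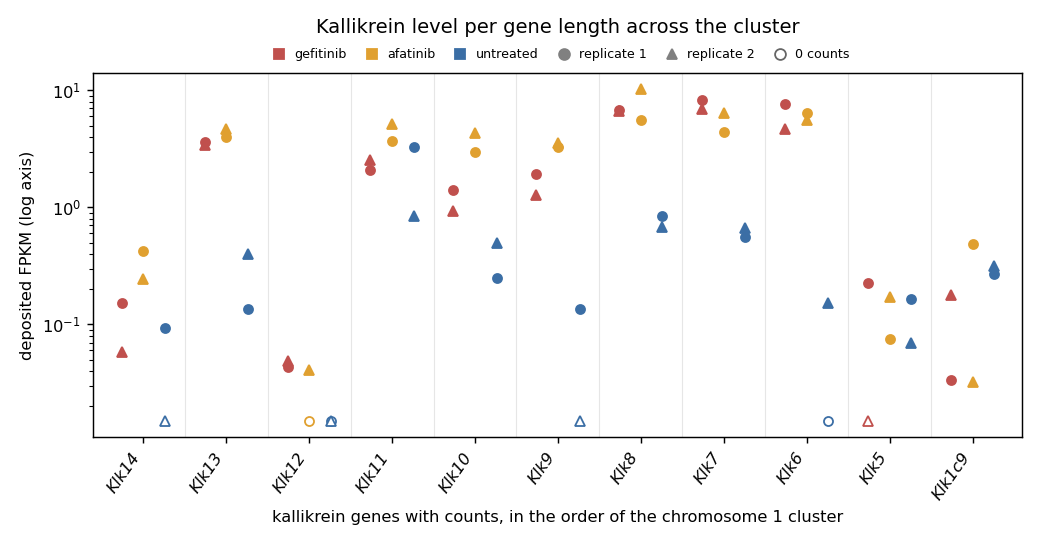
Deposited FPKM, a level per gene length, on a log axis for the kallikrein genes with any count, in their order along chromosome 1; circles are replicate 1, triangles replicate 2 and open symbols 0 counts. Klk13 and the run of Klk10 to Klk6 lie higher in all inhibitor libraries than in untreated ones, Klk11 overlaps untreated in gefitinib skin, and Klk14, Klk12 and Klk5 have few or 0 counts in all groups.

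The other kallikreins were at or near 0 counts. Klk5, a trypsin-like protease that activates Klk7 in human epidermis, had 5 and 0 counts in gefitinib libraries, 1 and 4 in afatinib libraries, and 2 and 1 in untreated libraries. Klk14, another trypsin-like protease of the cornified layer, had 3 and 1, 5 and 5, and 1 and 0 counts, and Klk12 had 3 counts over all libraries. For Klk14 the ratio of afatinib to untreated counts was 7.66, with a 95% interval for counting error of 1.09 to 332, and the gene was too low to enter the test across libraries. A difference in Klk5 and Klk12 was not detectable at this depth, where 3 counts correspond to 0.116 to 0.207 CPM in a library. Klk4, Klk15 and 6 of the 7 Klk1c genes had 0 counts in every library. Klk1c9 is the exception, with 77 counts in all, but its locus overlaps Klk15 and Klk1c3 and it has near-identical copies, so its reads are uncertain. It had 0.118 and 0.613 CPM in gefitinib skin, 1.69 and 0.116 CPM in afatinib skin, and 0.899 and 1.05 CPM in untreated skin, and it did not pass with either inhibitor.

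Per gene length, Klk6, Klk7 and Klk8 stood higher among the protease genes in inhibitor skin than in untreated skin, and Klk11 and Klk1c9 stood lower. In gefitinib skin Klk7 had 7.61 ± 1.02 FPKM, Klk8 6.69 ± 0.0989 and Klk6 6.16 ± 2.16 (SD, n = 2 each), which placed them at 6, 7 and 8 of the 77 genes. In afatinib skin Klk8 had 7.89 ± 3.24 FPKM, Klk6 6.02 ± 0.559 and Klk7 5.41 ± 1.46, in places 7, 8 and 9, and these levels differ by less than the largest SD among them. In untreated skin Klk8 had 0.766 ± 0.121 FPKM, Klk7 0.615 ± 0.0783 and Klk6 0.0757 ± 0.107, in places 12, 14 and 29. Klk11, at 2.06 ± 1.71 FPKM in place 8, was the kallikrein with the highest level in untreated skin, with a spread that reached the level of Klk8. It was in place 15 in gefitinib skin and 10 in afatinib skin, and Klk1c9 was in places 36, 30 and 20 in gefitinib, afatinib and untreated skin.

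Of the membrane proteases, St14 had the highest level. Matriptase, its product, is anchored in the membrane of epithelial cells. St14 had 141 and 109 CPM in gefitinib skin, 40.3 and 132 CPM in afatinib skin, and 10.2 and 17.6 CPM in untreated skin. Afatinib replicate 1 was well below the other 3 inhibitor libraries but still above both untreated ones. The log2 fold change was 3.17 with gefitinib (SE 0.588, edgeR adjusted p = 0.0176). With afatinib it was 2.63 (SE 0.575), just outside the threshold at an edgeR adjusted p of 0.0526. Without afatinib replicate 1 the afatinib value was 3.24, with an edgeR adjusted p of 0.00385, and without afatinib replicate 2 it was 1.47, with 0.122. The gefitinib call was lost when gefitinib replicate 1 or 2 or untreated replicate 1 or 2 was left out, at adjusted p values of 0.0541, 0.0563, 0.117 and 0.0987 by edgeR's test. St14 made up 28.3% and 28.9% of all counts of the 77 genes in gefitinib skin, 9.58% and 24.8% in afatinib skin, and 2.3% and 4.71% in untreated skin. Per length it stood second only to Htra1 with each inhibitor, at 38.6 ± 6.47 FPKM in gefitinib skin and 25.8 ± 19.0 FPKM in afatinib skin, against 4.41 ± 1.69 FPKM and place 7 in untreated skin (SD, n = 2 each). In afatinib skin that place rests on replicate 2, since replicate 1 had 12.3 FPKM, below Prss23 at 26.1, Plau at 19.2, Prss53 at 16.4 and Plat at 13.6 FPKM in the same library.

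Prss8, the partner of matriptase, had 14.5 and 12.8 CPM in gefitinib skin, 4.94 and 11.4 CPM in afatinib skin, and 1.45 and 2.79 CPM in untreated skin. Afatinib replicate 1 was again the lowest inhibitor library. Prss8 rose in gefitinib skin by 2.68 on the log2 scale (SE 0.533, edgeR adjusted p = 0.0204), and its change of 1.94 with afatinib did not pass (SE 0.524, edgeR adjusted p = 0.0842). By edgeR's test the afatinib value was 2.41 with an adjusted p of 0.0137 without afatinib replicate 1, and 1.15 with 0.356 without afatinib replicate 2. The gefitinib call was lost without gefitinib replicate 1 or 2 and without untreated replicate 1 or 2, with edgeR adjusted p values of 0.0695 to 0.119. The Prss8 locus overlaps Kat8 on the opposite strand by 405 bases, and the strand of counting is not given, so some of its reads may belong to Kat8.

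Both inhibitor genes of this pair were higher too. Spint1 had 109 and 88.1 CPM in gefitinib skin, 39.1 and 100.3 CPM in afatinib skin, and 6.92 and 8.49 CPM in untreated skin. It rose by 3.68 with gefitinib (SE 0.477, edgeR adjusted p = 0.0105) and by 3.18 with afatinib (SE 0.468, edgeR adjusted p = 0.0308) on the log2 scale. Spint2 had 188 and 178 CPM, 85.2 and 145 CPM, and 30.5 and 32.1 CPM in gefitinib, afatinib and untreated skin, and rose by 2.55 (edgeR adjusted p = 0.0105) and 1.88 (edgeR adjusted p = 0.035). Slpi, a secreted inhibitor of leukocyte serine proteases, rose by 3.45 with gefitinib and by 4.47 with afatinib. These were the 3 genes that passed among 5 tested in a list of 13 inhibitor genes found in the table, and 0 fell. The shares of all tested loci were 12.3% higher and 5.45% lower with gefitinib, and 3.6% and 0.372% with afatinib. Spink5, the kallikrein inhibitor, was below the filter, with 23 and 3 counts in gefitinib libraries, 7 and 6 in afatinib libraries, and 1 and 1 in untreated libraries.

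Of 11 tested genes in a list of substrates and receptors of epidermal proteases, 8 rose with gefitinib, 4 rose with afatinib and 0 fell with either. The medians were 2.47 and 2.06 on the log2 scale. Among all tested loci, 12.3% were higher and 5.45% lower with gefitinib, and 3.6% and 0.372% with afatinib. Epcam, which encodes a membrane protein that matriptase cleaves, rose by 2.59 with gefitinib and by 1.89 with afatinib. Dsg3 and Dsc1, desmosomal cadherins, rose by 2.46 and 4.57 with gefitinib and by 2.33 and 4.07 with afatinib. Dsg1, a cadherin that kallikreins cut in the cornified layer, had 77.2 and 60.8 CPM in gefitinib skin, 27.7 and 89.2 CPM in afatinib skin, and 12.1 and 11.5 CPM in untreated skin, and passed with gefitinib only (2.55, edgeR adjusted p = 0.0218; with afatinib 2.31, edgeR adjusted p = 0.0549). Casp14, Cldn7 and Scnn1a also rose with gefitinib, by 2.24 to 2.68. F2rl1, the receptor that trypsin-like proteases activate, did not pass, with changes of −0.02 with gefitinib (SE 0.412) and −0.20 with afatinib (SE 0.413). Of these inhibitor and substrate genes, Spint1, Spint2 and Epcam were among those that kept their gefitinib calls without either gefitinib library. All the called genes of both lists lost their calls without untreated replicate 1 or 2. The afatinib calls were also lost without gefitinib replicate 1 or 2 and, for all but Spint1, without afatinib replicate 2. Over the fits that left out a library, their edgeR adjusted p went up to 0.259.

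**Figure D3:**
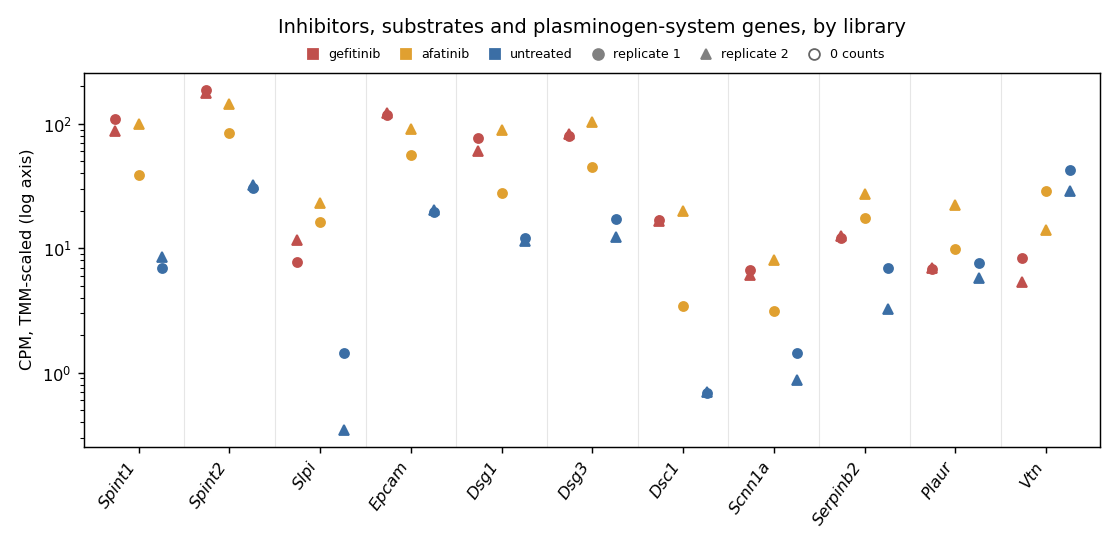
TMM-scaled CPM on a log axis, with 1 point per library (circle replicate 1, triangle replicate 2), for inhibitors (Spint1, Spint2, Slpi), substrates and adhesion or channel genes (Epcam to Scnn1a) and genes of the plasminogen system (Serpinb2 to Vtn). Afatinib replicate 1 lies below the other inhibitor libraries for Spint1, Spint2 and the genes from Epcam to Scnn1a, yet above both untreated libraries, and Vtn lies lowest in gefitinib skin.

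Of 9 tested Tmprss genes, which encode proteases with a transmembrane anchor, 2 rose with gefitinib and 1 rose with afatinib, and 0 fell. By the same test 12.3% of all tested loci were higher and 5.45% lower with gefitinib, and 3.6% and 0.372% with afatinib. Tmprss2, Tmprss6, Tmprss7, Tmprss9, Tmprss11f and Tmprss11g had no untreated library over the filter's cut-off. These genes could enter the test only through inhibitor libraries, so the counts and signs of this family support no direction. Tmprss13 encodes a membrane protease of the outer epidermis. It had 8.51 and 15.4 CPM in gefitinib skin, 2.53 and 10.1 CPM in afatinib skin, and 2.01 and 1.34 CPM in untreated skin. Its gefitinib libraries stood apart from untreated skin and afatinib replicate 1 nearly met it. Tmprss13 rose by 2.84 with gefitinib on the log2 scale (SE 0.71, edgeR adjusted p = 0.0371), and the change of 1.94 with afatinib did not pass (SE 0.696, edgeR adjusted p = 0.165). By edgeR's test the afatinib value of Tmprss13 was 2.60 with an adjusted p of 0.0154 without afatinib replicate 1, and 0.55 with 0.725 without afatinib replicate 2. Tmprss11g, of the airway-type protease cluster on chromosome 14 (23166633 to 23207327 in the deposited coordinates), had 34 and 83 counts in gefitinib libraries, 81 and 194 in afatinib libraries, and 0 and 0 in untreated libraries. It was thus seen in every inhibitor library and in 0 untreated ones. Against a floor of 3 counts per untreated library it was at least 13-fold higher with gefitinib (edgeR adjusted p = 0.015) and at least 33.4-fold higher with afatinib (edgeR adjusted p = 0.0308). Both untreated libraries were needed for these calls, and so was afatinib replicate 2 for the second, without which edgeR's adjusted p was 0.0563. The Tmprss13 call was lost without gefitinib replicates 1 and 2 in turn, at edgeR adjusted p values of 0.0649 and 0.157, and without untreated replicates 1 and 2, at 0.138 and 0.197. With limma-voom it was lost too.

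The other Tmprss genes did not pass. Tmprss2, an epithelial protease known from prostate and airway, had 2.31 and 1.44 CPM in gefitinib skin, 0.325 and 1.157 CPM in afatinib skin, and 0.346 and 0.175 CPM in untreated skin. Its gefitinib libraries lay above untreated ones, and its afatinib libraries overlapped them. Its log2 change was 2.84 with gefitinib (SE 0.846, edgeR adjusted p = 0.0571), a value that passed in 6 of 13 alternative fits, and 1.55 with afatinib (SE 0.858, edgeR adjusted p = 0.334). Tmprss4, an activator of epithelial sodium channels, had 1.69 and 1.88 CPM in gefitinib skin, 1.75 and 3.39 CPM in afatinib skin, and 1.04 and 0.698 CPM in untreated skin, with changes of 1.04 (SE 0.573) and 1.58 (SE 0.575). Tmprss11f had at most 0.656 CPM in any library, with changes of 1.29 (SE 0.822) and 0.90 (SE 0.839). Tmprss5 was the gene of the family with a negative change, at −2.16 with gefitinib (SE 0.663, edgeR adjusted p = 0.062) and −0.47 with afatinib (SE 0.624, edgeR adjusted p = 0.688). Its gefitinib value passed with no filter on low counts, with DESeq2 and with the 4 libraries compared alone. With all libraries scaled by their totals only, and without untreated replicate 1, the afatinib value of Tmprss5 was no longer negative. Tmprss6, Tmprss7 and Tmprss9 had positive changes with both inhibitors and at most 1.58 CPM in any library, and the afatinib values of Tmprss6 and Tmprss7 turned negative without afatinib replicate 2. Like Tmprss2 and Tmprss11f, these 3 genes could enter the test only through inhibitor libraries, so their positive signs support no direction. Of the 8 Tmprss genes below the filter, Tmprss11b had 1 and 1 counts in gefitinib libraries, 7 and 12 in afatinib libraries, and 0 and 0 in untreated libraries. Tmprss11d had 2 and 4, 3 and 8, and 1 and 19 counts in these groups, so that its highest value was in untreated replicate 2.

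Of 11 tested Prss genes, 5 rose with gefitinib, 3 rose with afatinib and 0 fell. Of all tested loci, 12.3% were higher and 5.45% lower with gefitinib, and 3.6% and 0.372% with afatinib. By edgeR's test at an unadjusted p under 0.05, the numbers in either direction were 6 and 5, where 37.2% and 21.9% of all tested loci passed. Prss16, Prss27, Prss35, Prss39 and Prss46 had no untreated library over the filter's cut-off and could enter the test only through inhibitor libraries. The counts of this family therefore describe these genes and support no direction. Besides Prss8 the genes that rose were the following. Prss53, which encodes a secreted protease with more than a single protease domain and lies near Prss8 on chromosome 1, had 29.7 and 37.9 CPM in gefitinib skin, 33.3 and 43.2 CPM in afatinib skin, and 14.9 and 8.96 CPM in untreated skin. All inhibitor libraries were above both untreated ones by a modest margin, and it had the highest level of the genes of this family that rose. The log2 fold change was 1.51 with gefitinib (SE 0.324, edgeR adjusted p = 0.0251) and 1.69 with afatinib (SE 0.325, edgeR adjusted p = 0.0412). Prss35, whose product is related to these proteases but is held to lack their activity, had 5.21 and 2.89 CPM in gefitinib skin, 2.01 and 2.97 CPM in afatinib skin, and 0.277 and 0.175 CPM in untreated skin. All inhibitor libraries were above both untreated ones, and gefitinib replicate 1 was the highest. The change was 4.15 with gefitinib (SE 0.652, edgeR adjusted p = 0.0134) and 3.45 with afatinib (SE 0.649, edgeR adjusted p = 0.0399).

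Prss27 and Prss22 lie near each other on chromosome 10 and encode proteases of epithelia. Prss27 had 20 and 32 counts in gefitinib libraries, 12 and 70 in afatinib libraries, and 0 and 0 in untreated libraries. Against a floor of 3 counts per untreated library it was at least 5.72-fold higher with gefitinib (edgeR adjusted p = 0.0313) and at least 9.11-fold higher with afatinib (edgeR adjusted p = 0.049). It was seen in every inhibitor library, most in afatinib replicate 2. Prss22 had 5.14 and 5.43 CPM in gefitinib skin, 4.68 and 3.51 CPM in afatinib skin, and 0.277 and 1.51 CPM in untreated skin. It passed with gefitinib, at 2.53 (SE 0.702, edgeR adjusted p = 0.0482), and not with afatinib, at 2.16 (SE 0.7, edgeR adjusted p = 0.132), although its groups did not overlap. With DESeq2 size factors in the edgeR fit, the gefitinib call of Prss22 and the afatinib call of Prss27 were lost, at adjusted p values of 0.0502 and 0.0524.

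The calls of these Prss genes rested on few libraries. In the gefitinib comparison by edgeR's test, Prss53, Prss27 and Prss22 lost their calls when each of gefitinib replicates 1 and 2 and untreated replicates 1 and 2 was left out, at adjusted p values of 0.0656 to 0.167. Prss35 lost its call without gefitinib replicate 1 or untreated replicate 1 or 2, at 0.0505, 0.0919 and 0.0994. In the afatinib comparison Prss53, Prss35 and Prss27 passed without afatinib replicate 1, with edgeR adjusted p values of 0.0124 to 0.0144. Without each of the other 5 libraries they did not, at 0.0768 to 0.242.

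Prss23, Prss12 and Prss36 did not pass. Prss23, which encodes a secreted protease, had the highest level per length of the Prss genes in each group, with 64.1 and 30.3 CPM in gefitinib skin, 70.5 and 62.3 CPM in afatinib skin, and 106 and 99.5 CPM in untreated skin. All inhibitor libraries were below both untreated ones, with changes of −1.12 with gefitinib (SE 0.363, edgeR adjusted p = 0.0709) and −0.63 with afatinib (SE 0.36, edgeR adjusted p = 0.348). The gefitinib value of Prss23 passed with no filter on low counts and with DESeq2. Prss12, whose product neurotrypsin is known from neurons, had 9.49 and 6.0 CPM in gefitinib skin, 8.06 and 7.87 CPM in afatinib skin, and 18.2 and 10.2 CPM in untreated skin. Prss36, which also lies near Prss8, had 3.02 and 5.43 CPM, 3.25 and 2.93 CPM, and 4.7 and 3.14 CPM in gefitinib, afatinib and untreated skin, so that its groups overlapped, while all inhibitor libraries lay above both untreated ones for Prss8 and Prss53. Prss16, Prss39 and Prss46 had at most 0.975 CPM in any library and also did not pass. Of the 26 Prss genes below the filter, 10 had 0 counts everywhere and the largest total was 21, for Prss38.

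**Figure D4:**
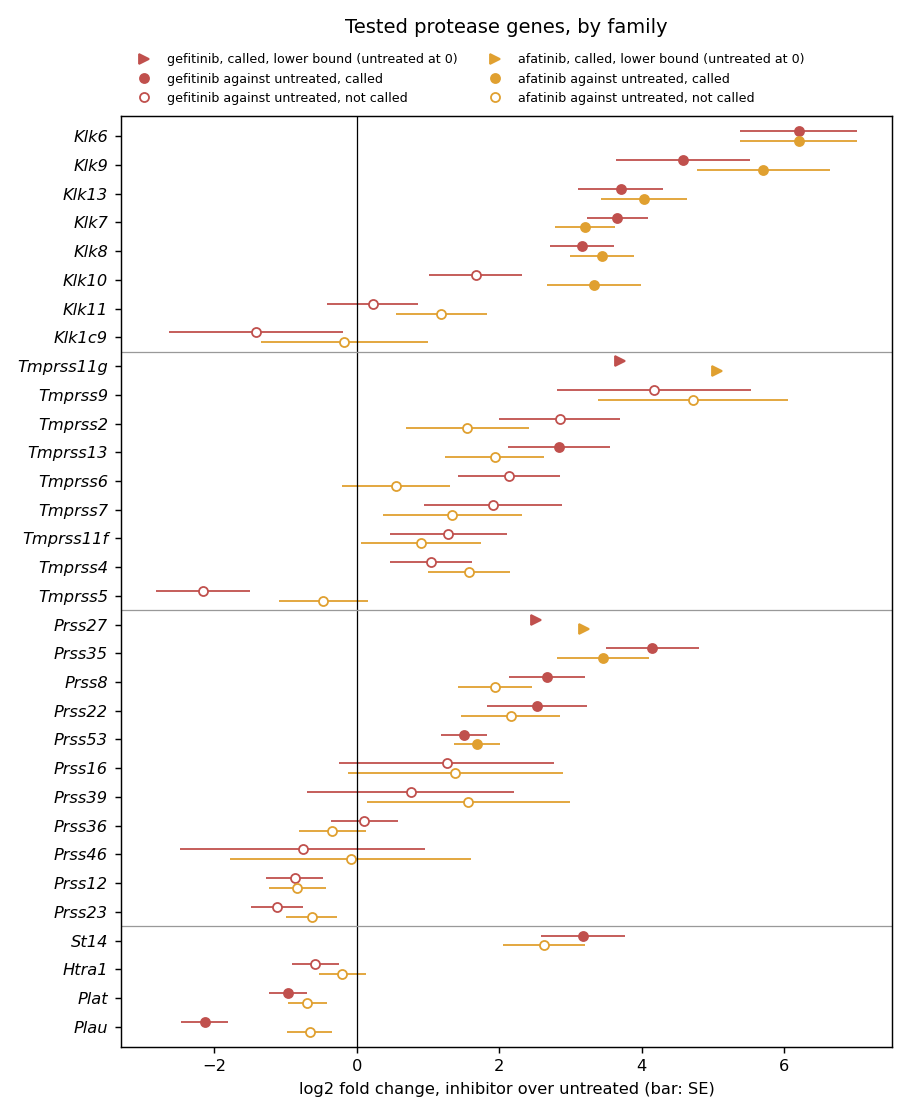
Log2 fold change of the 32 tested protease genes, inhibitor over untreated, grouped from top to bottom as Klk, Tmprss, Prss and the other 4 genes, with the SE as a bar; filled circles passed edgeR's test, open circles did not, and triangles are lower bounds for genes with 0 counts in untreated skin. Klk6, Klk7, Klk8, Klk9, Klk13, Prss35 and the bound of Tmprss11g lie to the right of 3 with both inhibitors, while Plau and Plat lie to the left, Plau further with gefitinib than with afatinib.

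Both plasminogen activator genes were lower in gefitinib skin. Plau, which encodes urokinase and lies on chromosome 15 at 3644769 to 3650819 in the deposited coordinates, had 12.5 and 10.02 CPM in gefitinib skin, 36.8 and 25.8 CPM in afatinib skin, and 60.4 and 38.4 CPM in untreated skin. Gefitinib libraries were the lowest, afatinib libraries lay between, and no groups overlapped. Plau fell by 2.13 on the log2 scale with gefitinib (SE 0.328, edgeR adjusted p = 0.0131), and its change of −0.66 with afatinib did not pass (SE 0.315, edgeR adjusted p = 0.275). Plat, which encodes the tissue-type activator, had 27.4 and 22.2 CPM in gefitinib skin, 35.5 and 24.5 CPM in afatinib skin, and 51.2 and 45.6 CPM in untreated skin. It fell by 0.96 with gefitinib (SE 0.27, edgeR adjusted p = 0.0489), just inside the threshold, and its change of −0.69 with afatinib did not pass (SE 0.269, edgeR adjusted p = 0.192). Inhibitor groups lay wholly below untreated in 33.9% of all tested loci with gefitinib and in 21.8% with afatinib. Without gefitinib replicate 2, untreated replicate 1 or untreated replicate 2, the edgeR adjusted p of Plau with gefitinib was 0.0723, 0.0919 and 0.0809. That of Plat was 0.132 to 0.231 with either gefitinib or either untreated library left out. The gefitinib call of Plat was also lost with libraries scaled by their totals only, at −0.27 (edgeR adjusted p = 0.596), and with limma-voom (adjusted p = 0.051). With afatinib, Plat passed without afatinib replicate 1, at −0.99 (edgeR adjusted p = 0.0389).

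Htra1, a secreted protease that degrades extracellular matrix, had the highest level per length of the 77 genes in every group, at 46.4 ± 17.3 FPKM in gefitinib skin, 59.1 ± 0.925 FPKM in afatinib skin and 71.5 ± 7.18 FPKM in untreated skin (SD, n = 2 each). It had 124 and 70.5 CPM in gefitinib skin, 123 and 130 CPM in afatinib skin, and 156 and 135 CPM in untreated skin. Its changes of −0.58 with gefitinib (SE 0.328, edgeR adjusted p = 0.232) and −0.20 with afatinib (SE 0.327, edgeR adjusted p = 0.746) did not pass, and both were positive, at 0.13 and 0.43, when libraries were scaled by their totals only. In untreated skin Htra1 was followed by Prss23 (39.3 ± 1.68 FPKM), Plau (26.6 ± 8.29 FPKM) and Plat (19.3 ± 1.5 FPKM). In gefitinib skin it was followed by St14 (38.6 ± 6.47 FPKM), Prss23 (17.5 ± 8.63 FPKM) and Prss53 (16.8 ± 3.15 FPKM). There Prss23 and Prss53 lay within an SD of each other, and St14 lay within the SD of Htra1. In gefitinib replicate 2 Htra1 had 34.2 FPKM and St14 had 34.0 FPKM, so their order in gefitinib skin is not secure.

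Around the plasminogen activators, 1 of 12 tested genes of a list fell with gefitinib and 1 rose with afatinib, and the medians were −0.12 and 0.12. All tested loci were higher in 12.3% and lower in 5.45% of cases with gefitinib, and in 3.6% and 0.372% with afatinib. Vtn, which encodes vitronectin, had 8.35 and 5.38 CPM in gefitinib skin, 29.1 and 14.1 CPM in afatinib skin, and 42.3 and 29.2 CPM in untreated skin, and fell by 2.38 with gefitinib (SE 0.435, edgeR adjusted p = 0.0172). Its groups were in the same order as those of Plau. Serpinb2, a plasminogen activator inhibitor of keratinocytes and macrophages, had 11.996 and 12.5 CPM in gefitinib skin, 17.5 and 27.1 CPM in afatinib skin, and 6.98 and 3.26 CPM in untreated skin, and rose by 2.13 with afatinib (SE 0.432, edgeR adjusted p = 0.0454). Plaur, the urokinase receptor, had changes of 0.02 with gefitinib (SE 0.434) and 1.25 with afatinib (SE 0.437, edgeR adjusted p = 0.156). By edgeR's test Vtn passed with gefitinib in 3 of 6 fits that left out a library, without gefitinib replicate 1, afatinib replicate 1 and afatinib replicate 2, and Serpinb2 passed with afatinib in 1 of 6, without afatinib replicate 1. Fibroblast markers summed to 6415 and 1342 CPM in gefitinib skin, 9243 and 3379 CPM in afatinib skin, and 21719 and 10458 CPM in untreated skin. Of the 9 in that list 1 rose and 0 fell with gefitinib, and the median was −1.32. Endothelial markers summed to 206 and 72.4 CPM in gefitinib skin, 284 and 241 CPM in afatinib skin, and 478 and 391 CPM in untreated skin. Of the 7 tested, 4 fell with gefitinib (median −1.91) and 0 with afatinib (median −0.80), and Cldn5 was at 0 everywhere. Few loci of any kind were called lower with afatinib, 0.372% against 5.45% with gefitinib. Schwann cell markers summed to 231 and 137 CPM, 294 and 201 CPM, and 1381 and 939 CPM in gefitinib, afatinib and untreated skin, and of 8 tested 6 fell with gefitinib (median −1.92) and 3 with afatinib (median −1.40). The part of these markers in the values of Plau and Plat was not tested.

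Among 14 tested genes of a list of other serine proteases and related genes, immune cell genes included, 1 rose and 1 fell with gefitinib. With afatinib 0 passed. In these comparisons 17.7% and 3.98% of all tested loci passed. Corin, a membrane protease known from the heart and from the dermal papilla of mouse hair, had 5.84 and 6.39 CPM in gefitinib skin, 1.75 and 6.75 CPM in afatinib skin, and 0.0692 and 0.582 CPM in untreated skin, and rose by 4.16 with gefitinib (SE 0.943, edgeR adjusted p = 0.0289). Hpn, which encodes the membrane protease hepsin, fell by 1.76 with gefitinib (SE 0.44, edgeR adjusted p = 0.0372). The mast cell genes Cma1, Tpsab1, Tpsb2 and Cpa3 did not pass with either inhibitor. Of 8 tested genes in a wider list of mast cell markers, 2 rose and 0 fell with each inhibitor. The medians of that list were −0.18 with gefitinib and 0.78 with afatinib. The neutrophil genes Ctsg and Elane had 0 and 7 counts over all libraries. Of 7 tested genes in a list of neutrophil markers, however, 5 rose and 0 fell with each inhibitor. Their medians were 5.57 with gefitinib and 5.15 with afatinib on the log2 scale. Among all tested loci 12.3% and 3.6% were higher in these comparisons. The calls of Corin and Hpn were lost without either gefitinib or either untreated library.

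Afatinib and gefitinib skin were also set against each other, although the doses differed. By edgeR's test 0 of the 32 protease genes and 0% of all tested loci passed. DESeq2, which called 0.156% of the 17968 loci to which it gave an adjusted p, also called 0 of these genes. So did limma-voom, which called 0% of all tested loci. At an unadjusted p under 0.05 edgeR had 3 higher and 1 lower, where 5.77% of all tested loci passed, 3.82% higher and 1.95% lower. The difference of Plau was 1.47 (95% interval 0.72 to 2.23, edgeR adjusted p = 0.787), that of Tmprss5 1.69 (0.14 to 3.23), that of Klk10 1.66 (0.32 to 3.01) and that of Tmprss6 −1.58 (−3.16 to −0.011), each with the same adjusted p. In each of these 4 genes the 2 groups did not overlap, as in 17.1% of all tested loci with afatinib higher and 19.9% with afatinib lower. The intervals of the following 7 genes included 0. The difference of Tmprss11g was 1.36 (−0.11 to 2.84), that of Klk9 1.13 (−0.39 to 2.64) and that of Prss27 0.69 (−1.21 to 2.59). The difference of Klk6 was −0.0046 (−1.30 to 1.29), that of Klk7 −0.45 (−1.31 to 0.41), that of Klk8 0.28 (−0.64 to 1.20) and that of St14 −0.54 (−1.80 to 0.73) on the log2 scale, so that each of these intervals includes a difference of more than 2-fold.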

How the data were processed

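Messenger RNA was measured in back skin of 6 libraries, 2 per group, flash frozen, extracted with Trizol and made into TruSeq libraries from 1 ug of RNA, per the labels. In the deposited count table every value is a whole, unscaled read count. In the deposited FPKM table the authors had divided each count by the length of its gene and by a number specific to its library, which was checked not to be the library total. The submitters' processing notes name DESeq2 1.16.1, featureCounts 1.5.0-p3 and HISAT2 2.0.5. Their roles, the build, the annotation and the counted strand are not stated in the sources used here. Each column was matched to its sample by title, and 0 columns were unmatched.

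Loci were filtered with filterByExpr (minimum count 10, minimum total 15), scaled with TMM and fitted with edgeR 4.0.16 quasi-likelihood in R 4.3.3, with 1 coefficient per group and 3 residual degrees of freedom. Tests were two-sided, adjusted by Benjamini-Hochberg over 16398 loci. The SE came from the F statistic; intervals are 95%. Folds against a group at 0 use a floor of 3 counts per library; intervals on counts and floors cover counting error only. Levels of different genes were compared in FPKM only. DESeq2 1.42.0 and limma 3.58.1 (voom) were alternatives, as were other scalings, no filter, the 4 libraries compared alone, a replicate block and leaving out each library. The fit was tested on simulated data.

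The genes and lists were chosen with earlier results of these data known. Named with values in every library were genes that passed in any comparison and a set of skin proteases; of each pathway list, genes that passed and up to 4 others with the smallest p; some genes of these lists are counted but not reported by name here. Promoters are from RefSeq, matched by symbol for 58 of 77 genes and 21 of the 32 tested.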

Additional observations from a re-analysis of the deposited data

How the results depend on the processing

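With gefitinib, the number of protease genes that were higher was 13, and 12 to 16 over the fits that changed scaling, filter, test or libraries in the fit while keeping both libraries of each group compared. It was 0 to 15 when a library was left out. The number lower was 2, against 1 with scaling by library totals only, 1 with limma-voom, 4 with no filter on low counts and 4 with DESeq2, and 0 to 4 when a library was left out. With afatinib the number higher was 10, against 0 with limma-voom, 1 with the 4 libraries compared alone, 15 with no filter and 13 with DESeq2, and 0 to 14 when a library was left out; the number lower was 0, and 0 to 1 when a library was left out. Over all tested loci, 2906 were called with gefitinib, against 4550 with no filter, 4594 with DESeq2, 5286 with the 4 libraries alone and 0 to 5320 when a library was left out. With afatinib 652 were called, against 1281 by totals, 2083 with no filter, 1960 with DESeq2, 34 with limma-voom, 51 with the 4 libraries alone and 0 to 3653 when a library was left out. For afatinib against gefitinib the 0 loci called became 1 by totals, 28 with no filter, 28 with DESeq2 and 0 to 3 when a library was left out, of which 0 were protease genes. Scaling by totals moved the median of all loci to 0.72 with gefitinib and 0.70 with afatinib, and turned Htra1 to 0.13 and 0.43. Klk11 with gefitinib ran between −0.45 without untreated replicate 2 and 1.498 without untreated replicate 1. Where not stated otherwise the cause was not tested.

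Replicate numbers were also added as a replicate block. Same-numbered libraries did not deviate together: their correlations over 16398 loci were −0.23 for gefitinib and afatinib, 0.04 for gefitinib and untreated, and 0.06 for afatinib and untreated, so the numbers are not taken to pair samples. With the block 12 protease genes were higher and 2 lower with gefitinib, and 6 were higher with afatinib, where all loci called numbered 369. The calls lost were that of Prss22 with gefitinib and those of Klk10, Prss27, Prss35 and Prss53 with afatinib. Hpn also lost its gefitinib call with the block, and with scaling by totals. The alternatives for the inhibitor, substrate and plasminogen genes were chosen after seeing the data. Depth limits the rarest genes: 25 of the 77 had 1 to 37 counts in all and could not be tested with the filter.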
